A study of Mus musculus with 8 samples.

Results

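The genes described here are 35 markers of macrophages and microglia-like cells, followed in mouse dorsal root ganglia after ligation of a spinal nerve. They were taken by symbol from the deposited count table, and all 35 listed genes had 10 or more reads in at least 1 library, of 17389 genes with that many reads and 53801 genes in the table. Of these, 11 are sorted below as general macrophage and leukocyte genes, 4 as Fc receptors and their adaptors, 5 as resident macrophage genes, 4 as microglia-like genes, 5 as genes of infiltrating monocyte-derived cells and 6 as lysosomal and lipid-handling genes. The mice were male C57BL/6J by their labels. In the operated mice the left L4 spinal nerve was tied tightly with silk suture. Ganglia L3 to L5 were pooled, so the injured-side library also holds 2 ganglia whose own nerve was not tied. Both sides of 3 pooled mice were sequenced at each of days 1, 3 and 7, the injured left side and the contralateral right side in 1 library each, and 3 further mice labelled as uninjured gave 1 left and 1 right library, which makes 8 libraries. No side was sequenced in a second library at any day, so a ratio at a single day has no test. The p-values for injury reflect how far the side difference varied between the 3 operated pools and the uninjured pool.

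Macrophages live in the dorsal root ganglion beside the cell bodies of sensory neurons, and after injury to a peripheral nerve they multiply or are joined by monocytes from the blood. They take up debris through scavenger and Fc receptors, digest it in lysosomes and store or export the lipid. PU.1, the product of Spi1, is the transcription factor that sets up most macrophage gene expression. In RNA from whole ganglia, more macrophages and more RNA per macrophage cannot be told apart.

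Total counts were 20488115 to 21652688 reads per library, and CPM values are counts scaled to equal library totals, on which scale 3 reads come to about 0.14. A count of 0 allows up to those 3 reads, and such limits cover counting error only. Atf3, an injury-induced transcription factor of sensory neurons, ranged from 464 to 629 CPM over the injured libraries and 110.1 to 167 on the contralateral side, against 10.9 and 10.99 without injury. The labels call the uninjured mice male, but both of their libraries held 4931 and 4129 reads of Xist and 0 reads of the Y-linked Kdm5d, whereas the 6 operated libraries held at most 3 reads of Xist and at least 280 of Kdm5d. A difference between operated and uninjured mice therefore cannot be told apart from sex or from the pool of mice.

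Promoters were in the RefSeq table (GRCm38.p6) for 28 of the 35 genes. The core of the PU.1 motif, GAGGAA on either strand, was found in the 300-base windows of 16 of these 28 (57.1%) and in 28.3% of all 27025 windows. GAAANNGAA, the core of the interferon response element, was in 25% of the members' windows and 8.57% of all. TGACTCA, the AP-1 site, was in 10.7% and 5.17%, and CACGTG, an E-box bound by regulators of lysosomal genes, in 7.14% and 7.24%. These matches describe the letters in the windows and are not evidence of binding. The 100 bases before the RefSeq start of 4 members are printed 5′ to 3′ on the gene's strand: Fcgr1, which rose with injury and carries the core, 2 others that carry it (Trem2 and Cd53), and Cd163, the member with the lowest adjusted p, which does not carry it in its window. Capitals mark the core or its complement TTCCTC.
Fcgr1 (chr3:96293970-96294069, minus strand): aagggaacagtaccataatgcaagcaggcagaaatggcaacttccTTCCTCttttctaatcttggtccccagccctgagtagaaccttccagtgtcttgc
Trem2 (chr17:48346301-48346400, plus strand): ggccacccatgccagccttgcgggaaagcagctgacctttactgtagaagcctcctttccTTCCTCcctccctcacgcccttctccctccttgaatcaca
Cd53 (chr3:106790150-106790249, minus strand): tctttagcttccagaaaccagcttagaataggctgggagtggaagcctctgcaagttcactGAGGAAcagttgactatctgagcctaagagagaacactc
Cd163 (chr6:124304551-124304650, plus strand): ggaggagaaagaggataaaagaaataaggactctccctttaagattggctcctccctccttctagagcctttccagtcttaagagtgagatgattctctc
The first base of the match lay 55 bases before the start in Fcgr1, 40 in Trem2 and 39 in Cd53. Of the 6 members with a promoter that passed the test of injury below, 3 carried the core.

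In ganglia without injury the levels of the members spanned a wide range. Set per kilobase of exon (RPKM, mean of both uninjured libraries), the highest were Lgmn at 167, Lyz2 at 52.1 and Ly86 at 48.1. General macrophage genes were far lower, with Cd68 at 2.94 RPKM, Adgre1 at 2.50, Aif1 at 1.45 and Ptprc at 0.433. The length used is that of all annotated exons of a gene joined, 18313 bases for Ptprc and 1257 for Cd68. The order of genes on this scale depends on that choice. Sall1, a transcription factor of microglia, and Siglech were close to the limit of detection, with 12 and 21 reads in their highest library. Lyz2 and its near-identical copy Lyz1 may share reads, so its level is uncertain.

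**Figure D1:**
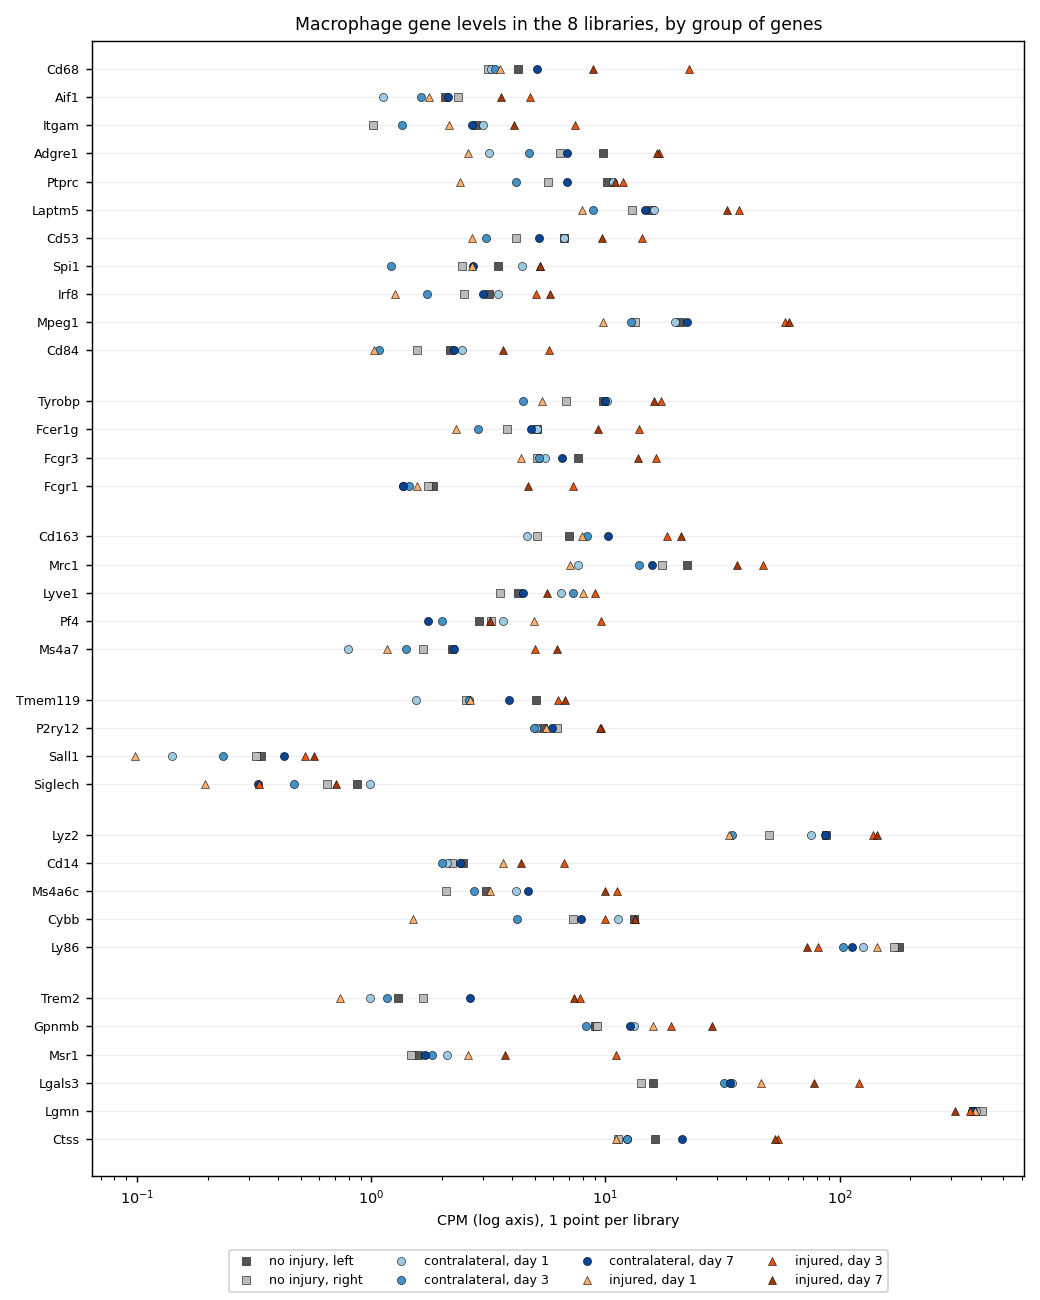
Level of each of the 35 genes in CPM (log axis), 1 point per library, genes arranged in their 6 groups. Squares are the uninjured libraries, circles the contralateral side and triangles the injured side at days 1, 3 and 7. The injured libraries of days 3 and 7 lie above the 6 others for 29 of the 35 genes, while Lgmn and Ly86 lie lowest in the injured library of day 7.

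Most members were highest in the injured ganglia of days 3 and 7. Both of those libraries exceeded all 6 others for 29 of 35 members, against 21.2% of all genes with 10 or more reads. Lyve1, Pf4, Siglech, Cybb, Ly86 and Lgmn did not follow that order. The injured library of day 3 was the highest for 22 members and that of day 7 for 10, and the injured library of day 1 was the lowest for 16. Among all genes with 10 or more reads, 21.5%, 16.6% and 14.8% had their highest, highest and lowest level in those 3 libraries. All 3 injured libraries exceeded every other library for Cd14, Gpnmb, Msr1 and Lgals3. These are 4 of 35 members, against 1964 of 17389 genes, which is a similar share.

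Across the 3 operated pools and the uninjured pool, 8 of the 34 members tested rose with injury and 0 fell. Over all 16244 genes tested, 10.1% rose and 8.02% fell (edgeR quasi-likelihood test blocked on the pool, Benjamini-Hochberg adjusted p under 0.05). The 8 were Aif1, Fcgr1, Cd163, Ms4a7, Tmem119, P2ry12, Cd14 and Gpnmb. Of the 34, 30 had a positive estimate, and the median was 0.86 on the log2 scale, against 0.016 over all genes tested. Without adjustment 15 members had p under 0.05 and a positive estimate, and 0 had a negative one, against 18.5% and 16.2% of all genes tested. DESeq2 and limma-voom called 11 and 13 members higher and 0 lower, with 8.35% and 10.6% of all genes higher. Of the 8 named above, limma-voom kept 8 and DESeq2 kept 6, without Aif1 and P2ry12. Sall1 had too few reads to be tested.

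The calls rest on few pools. Without the pool of day 1 the test called 24 members higher and 1, Ly86, lower, with 14.5% and 13.9% of all genes. Cd163 was the only member called without the pool of day 3, where 3.96% of all genes were higher, and again without that of day 7, where 2.90% were. Without the uninjured pool 4 were called higher (4.76% of all genes), and against the uninjured libraries alone 1, Lgals3 (4.29%). With the side of the body as a further term, a fit in which the uninjured mice alone inform the left to right difference, 0 members (0 also at an unadjusted p under 0.05 in edgeR) and 6 of all genes were called. In the uninjured mice 29 of the 35 members were higher on the left than on the right, by a median of 0.38 on the log2 scale, against 50.7% of all genes and a median of 0.0003. The right uninjured library stood apart in skeletal muscle markers, which summed to 990.3 CPM against 134 on the left. The part of that difference in the side ratio was not tested.

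**Figure D2:**
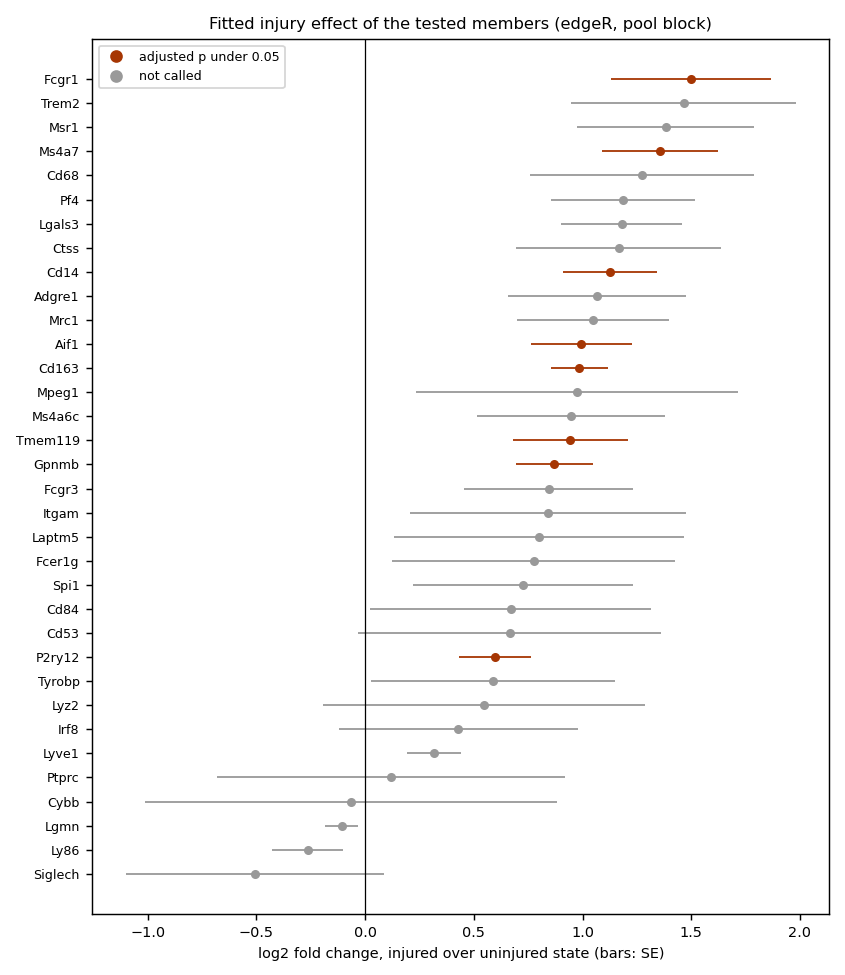
Fitted injury effect of the 34 tested genes as log2 fold change of the injured over the uninjured state (edgeR with the pool as a block), with bars for the SE. The 8 genes with an adjusted p under 0.05 are drawn dark, and they include estimates from 0.60 (P2ry12) to 1.4997 (Fcgr1). Ptprc, Cybb, Lyz2 and Mpeg1 have the widest bars.

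Genes of other cell types were counted beside the members. Of 5 fibroblast markers, Col3a1, Dcn and Lum passed the same test as higher, and the summed level of the list was 1448 and 1102 CPM in the injured libraries of days 3 and 7, against 374 to 777 on the contralateral side and 562 in the injured library of day 1. The uninjured mice had 1119 and 979.6 CPM. The 13 tested markers of neutrophils and their marrow precursors had a median estimate of -1.02, and the list of 14 summed to 35.4, 109 and 95.3 CPM in the injured libraries of days 1, 3 and 7, to 585, 58.3 and 93.9 on the contralateral side, and to 303 and 82.1 in the left and right uninjured libraries. Of its 14 genes, 12 were highest in the contralateral library of day 1. The 10 lymphocyte markers together stayed at or below 12.5 CPM in every library. The 5 melanocyte markers summed to 6.14 to 18.9 CPM, nearly all of it Tyrp1, while Mlana, Tyr and Dct had at most 4 reads. The 5 lymphatic endothelial markers summed to 50.3 to 113 CPM, highest in the injured library of day 3, with Reln and Pdpn as the most abundant. Among them Pdpn passed as higher, Prox1 had at most 26 reads and Ccl21a had 0 reads in all 8 libraries. Of 7 sensory neuron markers 4 passed as lower, and of 6 Schwann and satellite glia markers 3 passed as higher. In the injured and contralateral libraries of day 3, vascular endothelial markers summed to 132 and 64.5 CPM and markers of dividing cells to 52.6 and 11.2. The part of any of these cell types in the members' differences was not tested.

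**Figure D3:**
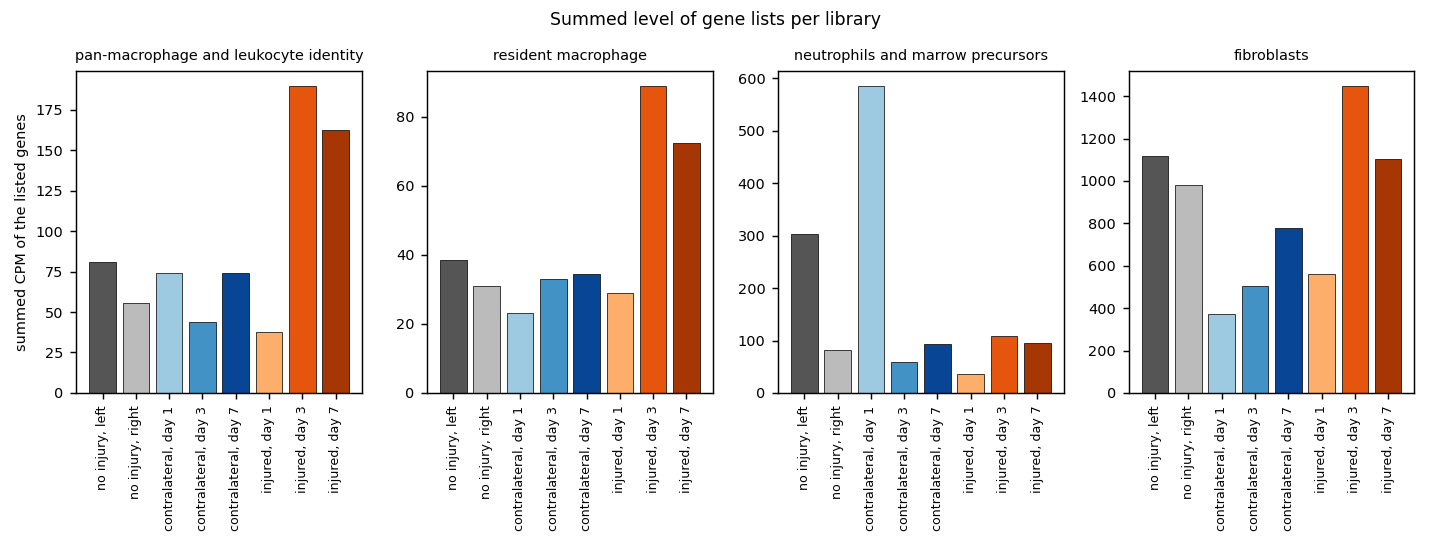
Summed CPM per library of the general macrophage genes, the resident macrophage genes, the markers of neutrophils and marrow precursors and the fibroblast markers, 1 bar per library. The macrophage lists and the fibroblast list are highest in the injured library of day 3, and the neutrophil and marrow list is highest, at 585 CPM, in the contralateral library of day 1.

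Among the 11 general macrophage and leukocyte genes 1 passed the test of injury, Aif1. That is near the 10.1% of all genes tested that rose. All 11 estimates were positive, with a median of 0.80. Aif1 encodes Iba1, a calcium-binding protein of macrophages and microglia, and lies at chr17:35170991-35176068 (GRCm38). It had 2.07 and 2.36 CPM without injury, 1.13, 1.64 and 2.12 on the contralateral side at days 1, 3 and 7, and 1.76, 4.78 and 3.60 on the injured side. The injured libraries of days 3 and 7 were the 2 highest and the day 1 library lay among the others. The fitted effect in edgeR was 0.99 ± 0.23 on the log2 scale (SE; adjusted p = 0.0267). DESeq2 did not call Aif1, and it kept the call in 4 of 11 alternative fits.

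Cd68, a glycoprotein of late endosomes and lysosomes, had 4.24 and 3.14 CPM without injury, 3.24, 3.37 and 5.08 on the contralateral side at days 1, 3 and 7, and 3.56, 22.7 and 8.81 on the injured side. The injured library of day 3 stood well above the rest and that of day 7 was second. The fitted effect in edgeR, 1.27 ± 0.52 on the log2 scale (SE; adjusted p = 0.156), did not pass. Adgre1 encodes F4/80, the classical mouse macrophage antigen, and had 9.79 and 6.37 CPM without injury, 3.19, 4.72 and 6.87 on the contralateral side at days 1, 3 and 7, and 2.59, 16.9 and 16.7 on the injured side. At days 3 and 7 the injured side was equal, and at day 1 both sides lay below both uninjured libraries. Its effect, 1.07 ± 0.41 on the log2 scale (SE; adjusted p = 0.136) in edgeR, did not pass.

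Ptprc encodes CD45, which every leukocyte carries, and had 10.2 and 5.68 CPM without injury, 10.8, 4.16 and 6.87 on the contralateral side at days 1, 3 and 7, and 2.39, 11.9 and 11.03 on the injured side. The injured library of day 1 was the lowest and the contralateral library of that day was nearly as high as the injured libraries of days 3 and 7. Mpeg1, a pore-forming protein of macrophages, had 20.7 and 13.3 CPM without injury, 19.7, 12.8 and 22.4 on the contralateral side at days 1, 3 and 7, and 9.76, 58.6 and 60.7 on the injured side. Its injured libraries of days 3 and 7 were at least 2.61-fold above every other library. Spi1, which encodes PU.1, had 3.47 and 2.45 CPM without injury, 4.41, 1.22 and 2.73 on the contralateral side at days 1, 3 and 7, and 2.68, 5.25 and 5.25 on the injured side, and the day 3 and day 7 levels of the injured side were only slightly above the contralateral level of day 1. Irf8, a partner of PU.1 in monocyte development, had 3.18 and 2.49 CPM without injury, 3.48, 1.73 and 3.01 on the contralateral side at days 1, 3 and 7, and 1.27, 5.06 and 5.78 on the injured side. For these 4 genes the fitted effects lay between 0.12 ± 0.80 (Ptprc) and 0.97 ± 0.74 (Mpeg1) on the log2 scale (SE) and did not pass in edgeR. Itgam (the integrin chain CD11b), Laptm5 (a lysosomal membrane protein of leukocytes), Cd53 (a tetraspanin) and Cd84 (a leukocyte adhesion receptor) were highest in the injured library of day 3, at 7.43, 37.1, 14.3 and 5.72 CPM. They did not pass either, with estimates of 0.66 to 0.84.

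Of the 4 Fc receptors and adaptors, Fcgr1 passed, where 10.1% of all genes tested rose. Fcgr1 encodes CD64, the high-affinity receptor for immunoglobulin G, at chr3:96282909-96293969. Its level was 1.83 and 1.75 CPM without injury, 1.36, 1.45 and 1.37 on the contralateral side at days 1, 3 and 7, and 1.56, 7.24 and 4.69 on the injured side. The 6 libraries other than injured days 3 and 7 were close together, between 1.36 and 1.83 CPM. The fitted effect in edgeR was 1.4997 ± 0.37 on the log2 scale (SE; adjusted p = 0.0335), the largest among the members. The adaptors Tyrobp (DAP12) and Fcer1g and the low-affinity receptor Fcgr3 had estimates of 0.59 ± 0.56, 0.77 ± 0.65 and 0.84 ± 0.39 (SE) and did not pass. At day 3 the injured library held 13.95 CPM of Fcer1g and 16.5 of Fcgr3, the highest of the 8 for both. Tyrobp had 9.79 and 6.79 CPM without injury, 10.2, 4.44 and 9.98 on the contralateral side at days 1, 3 and 7, and 5.37, 17.2 and 16.2 on the injured side, so its contralateral level at days 1 and 7 lay near that of the uninjured left library.

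Of the 5 resident macrophage genes 2 passed, where 10.1% of all genes tested rose. All 5 estimates were positive with a median of 1.05. Cd163, the scavenger receptor for haemoglobin and haptoglobin, lies at chr6:124304656-124330527 and had 6.99 and 5.08 CPM without injury, 4.60, 8.37 and 10.3 on the contralateral side at days 1, 3 and 7, and 7.91, 18.3 and 20.9 on the injured side. The injured library was the higher one in each pool, including that of day 1. In edgeR the effect was 0.98 ± 0.13 on the log2 scale (SE; adjusted p = 0.00421), the lowest adjusted p of the members. Ms4a7, a membrane protein of tissue macrophages at chr19:11321039-11336146, had 2.22 and 1.66 CPM without injury, 0.798, 1.40 and 2.26 on the contralateral side at days 1, 3 and 7, and 1.17, 5.01 and 6.20 on the injured side. At day 1 both sides were below the uninjured libraries, and the fitted effect in edgeR was 1.36 ± 0.27 on the log2 scale (SE; adjusted p = 0.0153).

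Mrc1 encodes the mannose receptor CD206 and had 22.2 and 17.5 CPM without injury, 7.65, 13.9 and 15.9 on the contralateral side at days 1, 3 and 7, and 7.08, 47.1 and 36.4 on the injured side. At day 1 both sides were below 8 CPM and all other libraries above 13. Its fitted effect in edgeR, 1.05 ± 0.35 on the log2 scale (SE; adjusted p = 0.108), did not pass. Lyve1, the hyaluronan receptor shared by perivascular macrophages and lymphatic endothelium, had 4.24 and 3.56 CPM without injury, 6.43, 7.29 and 4.42 on the contralateral side at days 1, 3 and 7, and 8.005, 8.99 and 5.63 on the injured side. Its side ratio was small at every day, 0.34, 0.24 and 0.33 on the log2 scale at days 1, 3 and 7, and the injured and contralateral ranges overlapped. Pf4, a chemokine of platelets and resident macrophages, had 2.89 and 3.23 CPM without injury, 3.66, 2.01 and 1.74 on the contralateral side at days 1, 3 and 7, and 4.93, 9.60 and 3.22 on the injured side. Only the injured library of day 3 exceeded 5 CPM, and the effect in edgeR, 1.18 ± 0.33 on the log2 scale (SE; adjusted p = 0.0513), just missed the threshold.

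Tmem119 and P2ry12, the microglia-like genes with the most reads, both passed, where 10.1% of all genes tested rose. Of 11 alternative fits, Tmem119 kept the call in 6 and P2ry12 in 5. Tmem119 at chr5:113793729-113800516 had 5.06 and 2.54 CPM without injury, 1.55, 2.62 and 3.86 on the contralateral side at days 1, 3 and 7, and 2.64, 6.29 and 6.72 on the injured side. The left uninjured library lay above the right one and came close to the injured libraries of days 3 and 7. The fitted effect in edgeR was 0.94 ± 0.27 on the log2 scale (SE; adjusted p = 0.0467), and with side as a further term it was -0.04. P2ry12, the purinergic receptor that guides microglial processes, lies at chr3:59216272-59262871 and had 5.40 and 6.19 CPM without injury, 5.07, 4.96 and 5.88 on the contralateral side at days 1, 3 and 7, and 5.56, 9.60 and 9.52 on the injured side. The 6 other libraries lay between 4.96 and 6.19 CPM and the effect in edgeR was 0.60 ± 0.16 on the log2 scale (SE; adjusted p = 0.0424). DESeq2 did not call P2ry12. Siglech, a sialic acid-binding lectin of microglia and plasmacytoid dendritic cells, had 0.868 and 0.647 CPM without injury, 0.986, 0.468 and 0.330 on the contralateral side at days 1, 3 and 7, and 0.195, 0.331 and 0.710 on the injured side. Its estimate in edgeR was -0.51 ± 0.59 on the log2 scale (SE; adjusted p = 0.592), and Sall1 had 2 to 12 reads per library.

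Of the 5 genes listed for infiltrating monocyte-derived cells 1 passed, where 10.1% of all genes tested rose. Cd14, the co-receptor for lipopolysaccharide, had 2.46 and 2.22 CPM without injury, 2.11, 2.01 and 2.40 on the contralateral side at days 1, 3 and 7, and 3.66, 6.67 and 4.36 on the injured side. Its 3 injured libraries were the 3 highest of the 8, and the effect in edgeR was 1.13 ± 0.22 on the log2 scale (SE; adjusted p = 0.0149). Ms4a6c, a membrane protein of monocytes, had 3.09 and 2.08 CPM without injury, 4.13, 2.76 and 4.66 on the contralateral side at days 1, 3 and 7, and 3.22, 11.2 and 9.94 on the injured side. Its injured libraries of days 3 and 7 were the 2 highest, and the estimate in edgeR, 0.95 ± 0.43 on the log2 scale (SE; adjusted p = 0.186), did not pass.

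Lyz2, the lysozyme of myeloid cells, had 87.4 and 49.7 CPM without injury, 75.6, 34.8 and 86.5 on the contralateral side at days 1, 3 and 7, and 33.8, 138 and 144 on the injured side. Its left uninjured library and the contralateral libraries of days 1 and 7 were above 75 CPM. The neutrophil and marrow list was at 303, 585 and 93.9 CPM in those 3. That list was at 82.1 in the right uninjured library and 58.3 in the contralateral library of day 3. On the injured side it was at 35.4, 109 and 95.3 at days 1, 3 and 7. The part of these cells in the Lyz2 level was not tested. Cybb, a subunit of the phagocyte NADPH oxidase, had 13.3 and 7.30 CPM without injury, 11.4, 4.21 and 7.86 on the contralateral side at days 1, 3 and 7, and 1.51, 9.93 and 13.4 on the injured side. The injured library of day 1 was the lowest, and the uninjured left library was nearly as high as the injured library of day 7. Neither passed (edgeR estimates of 0.55 ± 0.74 and -0.06 ± 0.95, SE).

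Ly86 did not follow the other genes of its group. It encodes MD-1, a partner of a Toll-like receptor homologue, and had 179 and 171 CPM without injury, 126, 103 and 113 on the contralateral side at days 1, 3 and 7, and 145, 80.6 and 72.7 on the injured side. The injured libraries of days 3 and 7 were the 2 lowest of the 8 and both uninjured libraries the highest. Its level without injury, 48.1 RPKM, was many times that of Cd68 or Cd14 (1.35 RPKM). Its side ratios were 0.23, -0.41 and -0.65 on the log2 scale, and the fitted effect in edgeR, -0.26 ± 0.16 on the log2 scale (SE; adjusted p = 0.310), did not pass. In these ganglia its direction was against the name of its list.

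Of the 6 lysosomal and lipid-handling genes 1 passed, where 10.1% of all genes tested rose. The median estimate was 1.17, the highest of the groups. Gpnmb, a glycoprotein of phagocytes and melanocytes at chr6:49036546-49070929, had 9.01 and 9.19 CPM without injury, 13.3, 8.28 and 12.7 on the contralateral side at days 1, 3 and 7, and 15.9, 19.1 and 28.4 on the injured side. All 3 injured libraries were above the 5 others, in rising order of the day, and the effect in edgeR was 0.87 ± 0.18 on the log2 scale (SE; adjusted p = 0.0217). Trem2, the lipid-sensing receptor that signals through Tyrobp, had 1.30 and 1.66 CPM without injury, 0.986, 1.17 and 2.64 on the contralateral side at days 1, 3 and 7, and 0.732, 7.76 and 7.34 on the injured side. The injured libraries of days 3 and 7 were nearly equal and at least 2.78-fold above all others, but the day 1 library was the lowest, and the effect in edgeR, 1.47 ± 0.52 on the log2 scale (SE; adjusted p = 0.104), did not pass.

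Lgals3 encodes galectin-3, a lectin of phagocytes that injured neurons can also make, and had 15.9 and 14.2 CPM without injury, 34.8, 31.99 and 33.9 on the contralateral side at days 1, 3 and 7, and 46.1, 121 and 77.7 on the injured side. All 6 operated libraries lay above both uninjured ones, and the 3 injured ones above the contralateral ones. The injury effect in edgeR was 1.18 ± 0.28 on the log2 scale (SE; adjusted p = 0.0509). Msr1, a scavenger receptor, had 1.59 and 1.48 CPM without injury, 2.11, 1.82 and 1.69 on the contralateral side at days 1, 3 and 7, and 2.59, 11.1 and 3.74 on the injured side, with the injured library of day 3 far above the rest and an effect in edgeR of 1.38 ± 0.41 on the log2 scale (SE; adjusted p = 0.0629). Ctss, the lysosomal protease cathepsin S, had 16.3 and 11.4 CPM without injury, 12.4, 12.3 and 21.3 on the contralateral side at days 1, 3 and 7, and 11.1, 54.5 and 53.2 on the injured side. Its injured levels of days 3 and 7 were alike and at least 2.49-fold above every other library, and the effect in edgeR, 1.17 ± 0.47 on the log2 scale (SE; adjusted p = 0.172), did not pass. Lgmn, the protease legumain, had 372 and 406 CPM without injury, 383, 370.4 and 368 on the contralateral side at days 1, 3 and 7, and 377, 361 and 309 on the injured side. The highest of these 8 values was 1.31 times the lowest, and the effect in edgeR was -0.11 ± 0.07 on the log2 scale (SE; adjusted p = 0.343).

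The side difference of the members varied between the days. The side ratio, injured over contralateral within a pool (log2 CPM after TMM scaling, prior count 2), had a median over the 35 members of -0.27 at day 1, 1.76 at day 3 and 0.91 at day 7, against 0.01, 0.00 and 0.00 over all genes. At day 1, 0 members were 2-fold or more higher on the injured side and 8 were 2-fold or more lower, against 2.29% and 3.35% of all genes. At day 3, 29 of 35 were 2-fold or more higher (8.33% of all genes), and at day 7, 14 were (4.66%). For 32 of the 35 the ratio was larger at day 3 than at day 7. There were 13 members with a positive ratio in all 3 pools. Neither of these counts was made over all genes.

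**Figure D4:**
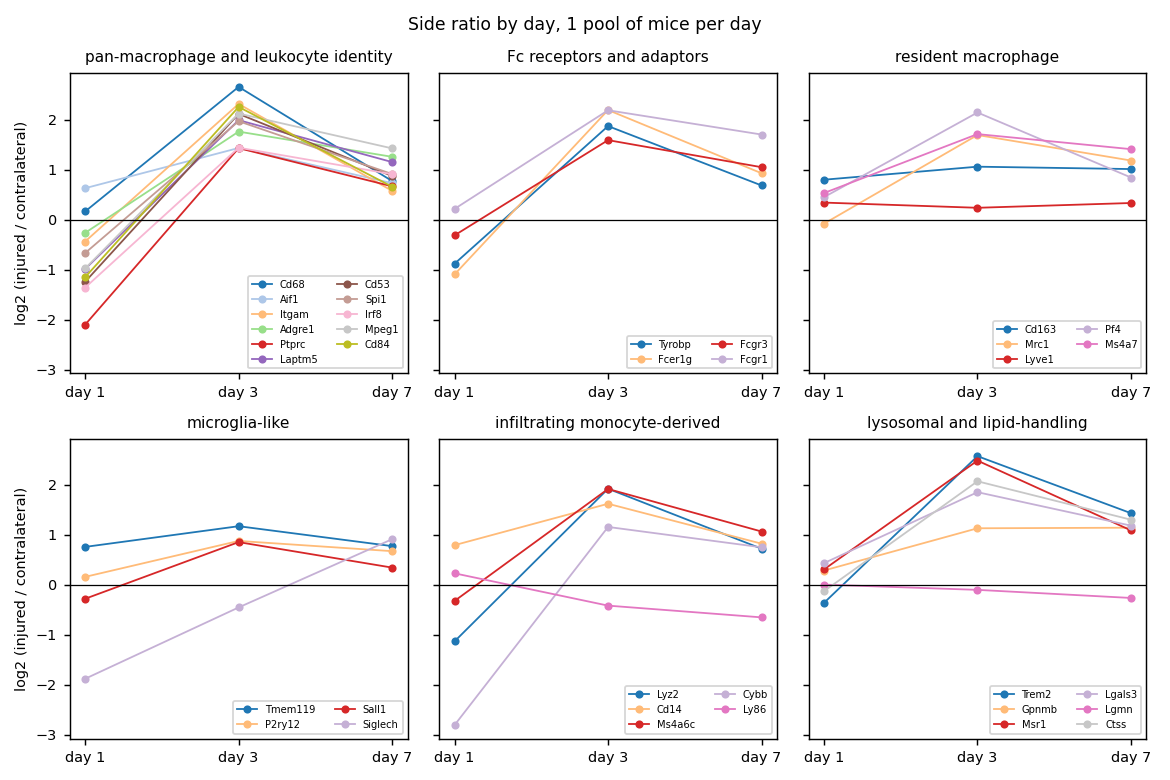
Log2 ratio of the injured to the contralateral library at days 1, 3 and 7, 1 line per gene and 1 panel per group. The median of the 35 genes is -0.27, 1.76 and 0.91 at the 3 days. Ptprc, Cybb and Siglech lie lowest at day 1, and Ly86 and Lgmn are the genes below 0 at both day 3 and day 7.

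Of the 20 members with a negative ratio at day 1, the 8 that were 2-fold or more lower were Cybb at -2.81, Ptprc at -2.10, Siglech at -1.88, Irf8 at -1.36, Cd53 at -1.24, Cd84 at -1.15, Lyz2 at -1.13 and Fcer1g at -1.10 on the log2 scale. The contralateral library of that day was the one with the highest neutrophil and marrow list (585 CPM, against 35.4 in the injured library of the same mice). Lymphocyte markers summed to 12.5 against 2.68 CPM and markers of dividing cells to 47.5 against 7.22. With the contralateral libraries of days 3 and 7 as the baseline instead, the median ratio of the members at day 1 was -0.40 and 6 members were 2-fold or more lower, against -0.0075 and 2.60% over all genes. The part of marrow and blood cell RNA in the day 1 ratios was not tested.

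Of the 5 resident macrophage genes, 4 had a positive side ratio at day 1, with a median of 0.45, where 52.0% of all genes were positive. The 7 further resident genes with 10 or more reads had 3 positive and 4 negative ratios and a median of -0.15. Of the 11 general macrophage and leukocyte genes 2 were positive, with a median of -0.98, and of 26 further identity genes 10 were, with a median of -0.19. The difference between these lists was not tested. Cd163 had the highest ratio of the members, 0.80. Mrc1, Adgre1, Ms4a7 and Tmem119 were low on the contralateral side of day 1 as well, at -1.36, -1.31, -1.19 and -1.24 on the log2 scale against the mean of the uninjured libraries. The fibroblast list was low in the same library, at 374 CPM against 980 and 1119 without injury. The part of such a difference in tissue makeup was not tested.

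Against the mean of the 2 uninjured libraries, the injured side had a median over the members of -0.48 at day 1, 1.29 at day 3 and 0.99 at day 7 on the log2 scale. At day 3, 24 members were 2-fold or more higher (7.77% of all genes), and at day 7, 17 were (6.77%). Lgals3 had the highest such ratio at day 3, 2.96, followed by Msr1 at 2.75, Cd68 at 2.55 and Trem2 at 2.28. Cybb was at -0.08 and Ptprc at 0.54. These ratios share their uninjured baseline and are confounded with the sex of the pools.

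In the injured libraries 23 of the 35 members were lower at day 7 than at day 3 and 12 were higher, where 46.8% of all genes were lower. Msr1, Pf4 and Cd68 were 2-fold or more lower at day 7 (1.91% of all genes), at -1.52, -1.53 and -1.33 on the log2 scale. Adgre1, Ctss, Trem2 and Mpeg1 were level, between -0.06 and 0.08. Gpnmb, Ms4a7 and Cd163 were higher at day 7, by 0.60, 0.32 and 0.21. Each day is a different pool of mice with 1 library, so these differences have no test.

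**Figure D5:**
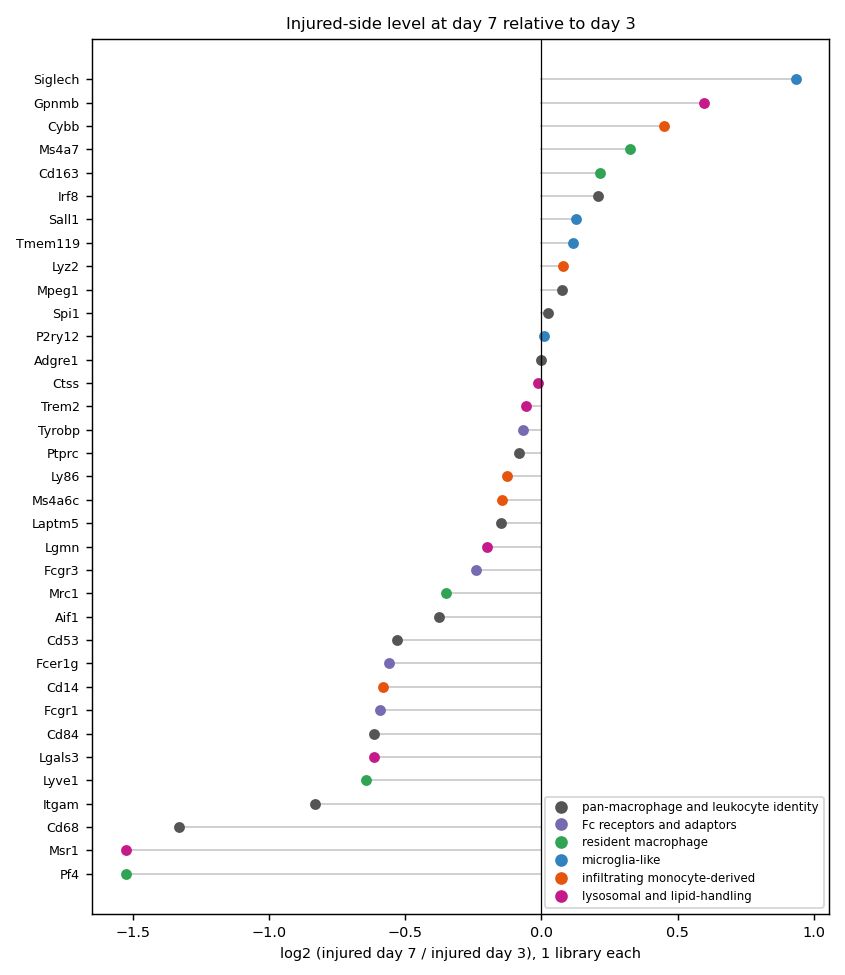
Log2 ratio of the injured library of day 7 to that of day 3 for the 35 genes, coloured by group, 1 library per day. Pf4, Msr1 and Cd68 lie furthest left, below -1, and Siglech (7 and 15 reads) and Gpnmb furthest right.

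A trend of the side difference with the day was fitted as injured state by log2 of the day, with 2 residual degrees of freedom. It called 0 of 34 members higher and 0 lower with time, and 0 of 16244 genes in either direction (0% each; edgeR). Over all genes 596 had a rising and 703 a falling side difference at an unadjusted p under 0.05, and DESeq2 called 37 and 12. At an unadjusted p under 0.05 there were 3 members with a rising side difference (Irf8, Siglech, Gpnmb) and 1 with a falling one (Ly86). DESeq2 called 0 higher and 1 lower, Ly86. The Gpnmb slope was 0.32 ± 0.09 per doubling of the day (SE; edgeR adjusted p = 0.438) and that of Ly86 -0.32 ± 0.05 (edgeR adjusted p = 0.138). Without the pool of day 7 the fit called 18 members higher and 1 lower (3.93% and 3.48% of all genes), and without that of day 3 it called 8 higher and 1 lower (1.71% and 1.45%). Without the pool of day 1 the slope of Cd68 was -1.56, against 0.24 with it.

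On the contralateral side 1 of 34 members, Lgals3, was higher than in uninjured mice and 0 were lower (edgeR, 2 residual degrees of freedom, both uninjured libraries summed to 1 sample; 0.125% and 0.155% of 16747 genes passed in the 2 directions). At an unadjusted p under 0.05 there was 1 member in each direction, against 687 higher and 793 lower of all 16747 genes. DESeq2 called 1 member higher and 1 lower, with 0.519% and 0.448% of all genes. Lgals3 differed by 1.16 ± 0.10 (SE; edgeR adjusted p = 0.00296). Without the contralateral library of day 3 the call was lost. Ly86 differed by -0.61 ± 0.10 (SE; edgeR adjusted p = 0.0911). The median over the members was -0.06. This comparison is between pools that differ in sex by Xist and Kdm5d.

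The 88 further macrophage genes, listed by the same roles, gave counts in the test of injury. Over all genes 10.1% rose and 8.02% fell in that test. Of 26 further identity genes, 3 rose and 3 fell, which is near those shares, while 21 had a positive estimate and the median was 0.79. Lcp1, an actin-bundling protein of leukocytes that was highest at 263 CPM in the left uninjured library, fell by 0.43, Runx1, a transcription factor of blood cells and some sensory neurons, fell by 0.37, and Axl, a receptor for dying cells, rose by 0.87 on the log2 scale. Of 7 tested further resident genes 2 rose, the carbonyl reductase Cbr2 by 1.14 and the scavenger receptor Stab1 by 1.25. Folr2, a folate receptor of resident macrophages, had 2.24 (edgeR adjusted p = 0.0570) with at most 62 reads.

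Positive estimates were found for 6 of the 7 resident genes (median 0.81), 4 of 5 microglia-like genes (0.71), 11 of 17 genes of infiltrating cells (0.42) and 21 of 27 lysosomal and lipid genes (0.27 on the log2 scale). Of 5 further microglia-like genes 1 rose. Fcrls had 7.47 and 6.14 CPM without injury, 2.11, 6.73 and 10.1 on the contralateral side at days 1, 3 and 7, and 2.73, 32.9 and 31.01 on the injured side, so both injured libraries of days 3 and 7 were at least 3.08-fold above all others. Its effect in edgeR was 1.62 ± 0.31 on the log2 scale (SE; adjusted p = 0.0247). Olfml3 (0.32 ± 0.10, SE) and Hpgds (0.96 ± 0.36, SE) did not pass. Of 17 tested further genes of infiltrating cells 3 rose, the matrix proteoglycan Vcan by 0.82, the calcium-binding protein S100a4 by 0.74 and Arg1 by 2.38. Arg1, which encodes arginase 1 and is also made by injured neurons, had 0.337 and 0.0924 CPM without injury, 1.36, 2.57 and 1.55 on the contralateral side at days 1, 3 and 7, and 5.52, 33.2 and 2.94 on the injured side, with the highest level in the injured library of day 3 and, at day 7, an injured level still above the 3 contralateral ones. Of 27 further lysosomal and lipid genes 5 rose and 1 fell. Cd63, a tetraspanin of late endosomes, rose by 0.98, Plin2, a lipid droplet coat protein, rose by 1.20, and Abcg1, a cholesterol exporter, fell by 0.48.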

How the data were processed

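RNA sequencing of pooled mouse dorsal root ganglia gave 8 libraries of 3 mice each. The values are raw counts of reads per gene, whole numbers as deposited, and the authors named cutadapt 1.16, STAR 2.5.4a, featureCounts 1.6.3 and DESeq2 with the build GRCm38, per the submitters' processing notes. The sources used here do not give the strand setting or the annotation release. Reads of overlapping and antisense genes then cannot be told apart. Symbols and positions came from GENCODE M21, which matched 53620 gene IDs.

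Depth was 20488115 to 21652688 counts per library. No pair of libraries agreed within sampling noise (lowest chi-square per gene 6.38).

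All tests were fitted on the whole table with edgeR 4.0.16 in R 4.3.3: TMM scaling, the filterByExpr filter (minimum count 10), quasi-likelihood F test and Benjamini-Hochberg adjustment at 0.05. The injury effect used all 8 libraries, blocked on the pool (3 residual degrees of freedom), since both sides came from the same mice. Between the 2 sides of a pool, deviations from the group means had correlations of 0.29 (day 1), -0.09 (day 3) and 0.38 (day 7). Side ratios used log2 CPM with a prior count of 2. Alternatives were DESeq2 1.42.0, limma-voom (limma 3.58.1), RLE factors, no filter, no block, a term for the side and leaving out each pool. The scripts were tested on simulated counts.

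The members and lists were chosen with earlier results of these data known. Named genes are all 35 members, and the 3 genes of each further list with the lowest p of the injury effect. Fcrls and Arg1 are given by library for their size, chosen after their values were seen. Marker lists are given by their summed level and their markers at or near 0.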

Additional observations from a re-analysis of the deposited data

Results flagged for a closer look

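For 7 members the side ratio (injured over contralateral, log2) was 2-fold or more lower at day 1 and 2-fold or more higher at day 3, in 1 pool of mice each. The difference between the days was not tested, and the genes meeting this rule were not counted over the whole table. Cybb, of the phagocyte oxidase, had -2.81 at day 1 and 1.16 at day 3. Ptprc, the pan-leukocyte antigen CD45, had -2.10 and 1.43. Irf8 had -1.36 and 1.44, Cd53 had -1.24 and 2.12, and Cd84 had -1.15 and 2.26. Lyz2 had -1.13 and 1.92, and Fcer1g had -1.10 and 2.19. No group of libraries was large enough for a check of single outlying values.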

How the results depend on the processing

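The injury effect called 8 members higher and 0 lower. Leaving out 1 pool gave 1 to 24 members higher and 0 to 1 lower, with 24 and 1 without the pool of day 1. limma-voom called 13 higher, the uninjured libraries alone as baseline gave 1, and a side term gave 0, among 6 of all genes. Without the replicate block 6 members were called higher (9.59% of all genes), and 4 of the 8 kept their call. The trend called 0 members in each direction. Leaving out 1 pool gave 0 to 18 higher and 0 to 1 lower. DESeq2 gave 1 lower and no filter gave 1 lower (0.0739% and 0.01% of all genes). Days 3 and 7 against day 1 gave 1 higher and 1 lower (0.542% and 0.529% of all genes). On the contralateral side 1 member was higher and 0 lower; leaving out 1 library gave 0 to 2 higher and 0 to 2 lower, and DESeq2 and no filter gave 1 lower each. The Cd68 trend ran from -1.56 (reversed, without the pool of day 1) to 1.5998 (without that of day 7), and the Tmem119 injury effect reversed to -0.035 with a side term. The cause of these changes was not tested, beyond the fewer samples of each left-out fit. With the contralateral libraries of days 3 and 7 as baseline, chosen after seeing the data, the median side ratio at day 1 was -0.40 against -0.27. Of the single members' values for the injury effect, 287 kept their side of the threshold, 31 passed it newly, 39 lost it, 15 moved and 1 reversed. This tally pools all tested members, and 26 of the 34 were not called to begin with. Among the 8 called members, the call was kept in 4 (Aif1) to 8 (Cd163) of 11 alternatives. Sall1 and Siglech are limited by depth, with at most 12 and 21 reads.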
